A study of Sus scrofa with 10 samples.

Results

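Fatty acids that reach the liver are taken up, bound in the cytosol, activated, and then burned, esterified or remodelled into longer and more unsaturated chains, and 9 genes of this route were examined in pig liver: the uptake genes *CD36* and *SLC27A2*, the activating enzyme gene *ACSL4*, the binding protein genes *FABP1* and *DBI*, the desaturase genes *FADS1* and *FADS2*, and the elongase genes *ELOVL2* and *ELOVL5*. A gene was represented by the probe sets of the array whose annotation gives its symbol and no other. Of the 9 genes, 5 had such a probe set, out of 6765 genes with 1 in the whole data set, and 4 of them, *ACSL4*, *FABP1*, *DBI* and *FADS1*, reached a mean of 4 on the log2 scale over the animals, the minimum set for a measured gene. *FADS2* had 2 probe sets and both lay under that minimum. *CD36*, *SLC27A2*, *ELOVL2* and *ELOVL5* had no probe set under their symbol alone in the annotation used and were not analysed here. All 9 genes are therefore accounted for, but only 4 entered the comparison of the groups.

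The livers came from 10 females of a backcross in which Iberian boars were crossed with Landrace sows and the crossbred sons were mated to Landrace sows again, and all the pigs were kept and fed alike and slaughtered at a similar age. The 5 animals of the H group and the 5 of the L group stood at opposite ends of the first principal component of carcass traits and of the fatty acid composition of the loin muscle, H with the more polyunsaturated muscle fat and L with the more saturated and monounsaturated muscle fat. The groups were thus set by a trait of muscle and not by one of liver, and no animal carried a transgene or received a treatment. Each animal gave 1 Affymetrix GeneChip Porcine array of liver RNA, so that the animal is the replicate. Some animals of H have a full or maternal sib in L, which the labels do not identify, so the kinship was not modelled.

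Dietary linoleic and α-linolenic acid are essential because mammals cannot make them, and the liver is the main organ that turns them into arachidonic, eicosapentaenoic and docosahexaenoic acid. The Δ6 desaturase encoded by *FADS2* and the Δ5 desaturase encoded by *FADS1* put in the double bonds, while the elongases ELOVL5 and ELOVL2 add the carbon units between and after them. Before any of this a fatty acid has to enter the hepatocyte, be carried in the cytosol by liver fatty acid binding protein, and be joined to coenzyme A, after which acyl-CoA binding protein holds the product.

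A value on the array is the log2 signal of a probe set, so that 1 unit is a doubling of the signal. The lowest value of the table was 2.19, and the brightest probe set of every array reached at least 15.86. A level can be placed between these bounds, but levels of different genes were not set against each other, because their probes differ. Constant values also occurred above the lowest one. On all 10 arrays *LEP* was at 2.69 and *ACOT8*, to the second decimal, at 4.38. A mean of 4 therefore does not by itself show that a gene has signal. Of 10 hepatocyte markers listed, 9 were measured, and their mean lay between 14.21 and 14.42 in the H animals and between 14.21 and 14.40 in the L animals. Of 7 adipocyte markers 4 had a probe set and of 9 skeletal muscle markers 6, and none of these reached a mean of 4. *ADIPOQ*, *MYH2* and *CKM* were at the lowest value on all 10 arrays, whereas the adipocyte marker *FABP4* averaged 3.64 and was 5.05 in L3 and 4.39 in L5. Of 12 macrophage markers 7 had a probe set and 6 were measured, and *MARCO* was at the lowest value on all 10 arrays. The mean of the 6 lay between 8.19 and 8.92 in H and between 8.34 and 8.89 in L. Of 11 endothelial markers 6 had a probe set and 4 were measured. *KDR* was at the lowest value on all 10 arrays and *VWF* averaged 2.39. The mean of the 4 lay between 7.51 and 8.09 in H and between 7.27 and 8.23 in L. As a measure of RNA quality, the signal of the *GAPDH* 5' control was subtracted from that of the 3' control, a difference that widens with RNA degradation, and it averaged 1.96 in H (SD 0.28) and 1.99 in L (SD 0.42), with p = 0.897 by an exact two-sided permutation test over 5 and 5 animals. Its highest values were those of L1, 2.70, and H2, 2.39, and these animals recur below. The array measures RNA of the whole tissue, in which fewer cells of a type and less RNA per cell cannot be told apart.

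None of the 4 measured genes passed the test between H and L. In the fit over all 4730 measured genes (limma, two-sided, Benjamini-Hochberg adjustment), 0 genes had an adjusted p under 0.05, which is 0% of them, and the smallest adjusted p was 0.985. At an unadjusted p under 0.05 the fit called 125 genes, or 2.64%, 38 of them higher and 87 lower in H, and again 0 of the 4. *ACSL4* and *FABP1* had a higher mean in H, *DBI* and *FADS1* a lower one. The median difference of the 4 genes was -0.04 and that of all measured genes was also -0.04. Without regard to sign the median difference of the 4 genes was 0.32, against 0.10 over all genes. The 4 genes also had the larger median SD over the 10 animals, 0.39 against 0.22. The values of the individual animals, which spread widely for some of these genes, are described gene by gene below.

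**Figure D1:**
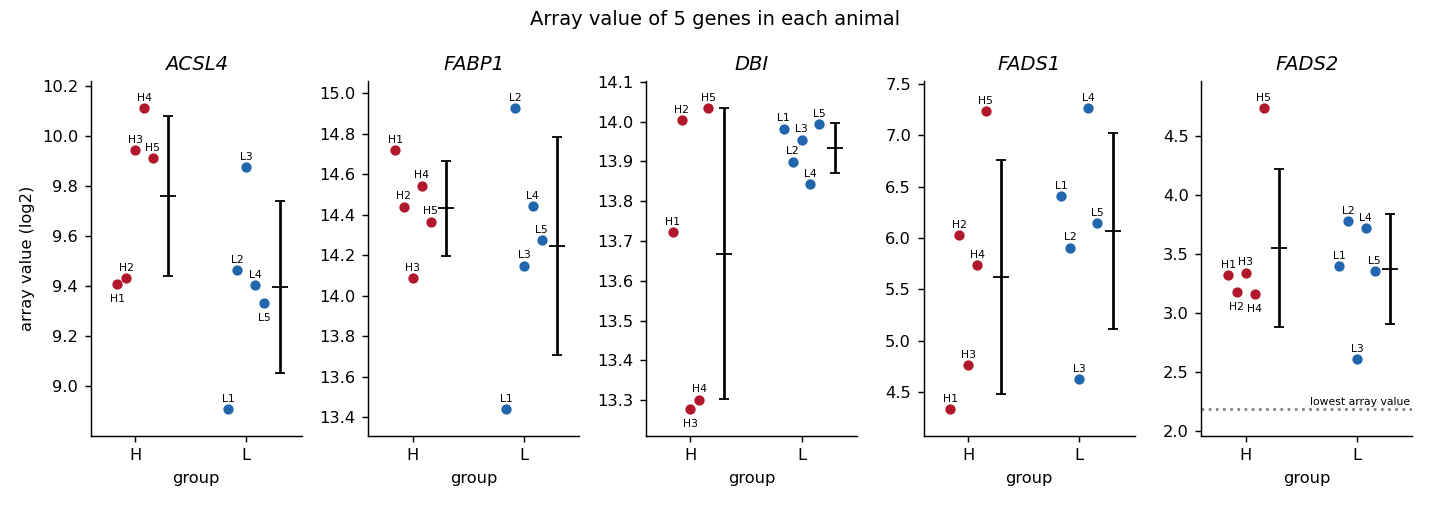
Array value (log2) of *ACSL4*, *FABP1*, *DBI*, *FADS1* and the brighter probe set of *FADS2* in each of 5 H animals (left, red) and 5 L animals (right, blue), with the group mean ± SD beside the points, each gene on its own axis. The 2 groups overlap for *ACSL4*, *FABP1*, *FADS1* and *FADS2*, while for *DBI* the 5 L animals lie between 13.84 and 13.99 and every H animal lies outside that range, 2 above and 3 below.

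*ACSL4* encodes a long-chain acyl-CoA synthetase that prefers arachidonic acid and other polyunsaturated fatty acids, and in this way commits them to phospholipids. Its values were 9.41, 9.43, 9.94, 10.11 and 9.91 in H1 to H5, and 8.91, 9.46, 9.87, 9.41 and 9.33 in L1 to L5. H3, H4 and H5 lay above all L animals and L1 lay below all others, while H1 and H2 fell among the L animals. The 5 H animals averaged 9.76 ± 0.32 and the 5 L animals 9.40 ± 0.34 (SD), a difference of 0.36 with a standard error of 0.19 and a 95% confidence interval from -0.07 to 0.79. This was the smallest p of the 4 genes, 0.0885 before and 0.985 after adjustment (limma), and 6.19% of all measured genes had a smaller one. An exact permutation test of the animals gave p = 0.0794. The difference stayed above 0 whichever animal was left out, at its smallest 0.24 without L1 and at its largest 0.48 without L3. *ACSL4* had an unadjusted p of 0.0475 without H1 and of 0.0252 without L3 (limma), with adjusted p-values close to 1 in both cases.

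*ACSL4* was also the gene whose level went most closely with the *GAPDH* 3' minus 5' difference. Over the 10 animals its Pearson correlation with that difference was -0.741 (permutation test, p = 0.0112, adjusted over the 5 genes 0.0558) and its Spearman correlation was -0.600 (permutation test, p = 0.0729, adjusted 0.364). Animals with a larger 3' minus 5' difference had less *ACSL4* signal, and L1 had the largest difference and the least signal. Without L1 and H2, whose difference was farthest from the median, the correlation was -0.505, and with each group centred on its own mean it was -0.841. A correlation as low as that of *ACSL4* was found in 2.71% of all measured genes, and one at least as far from 0 in either direction in 4.32%. With that measure entered as a covariate, the *ACSL4* difference between H and L was 0.34 with a standard error of 0.12, at an unadjusted p of 0.0191 and an adjusted p of 0.969 (limma). The part of RNA quality in the *ACSL4* signal was not otherwise tested.

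*FABP1* encodes liver fatty acid binding protein, the abundant cytosolic carrier of fatty acids in hepatocytes. Its values were 14.72, 14.44, 14.09, 14.54 and 14.37 in H1 to H5, and 13.44, 14.93, 14.15, 14.44 and 14.28 in L1 to L5. The highest and the lowest animal were both of the L group, L2 and L1, and the H animals lay between them. The 5 H animals averaged 14.43 ± 0.23 and the 5 L animals 14.25 ± 0.54 (SD), and the difference of 0.18 had a standard error of 0.24 and a 95% confidence interval from -0.34 to 0.71 (limma, unadjusted p = 0.456, adjusted p = 0.985; exact permutation test, p = 0.540). It rested on single animals, since it was -0.02 without L1 and 0.35 without L2. The SD of the L group was 2.31 times that of the H group, a ratio that 9.44% of the measured genes reached. The correlation of *FABP1* with the *GAPDH* difference was -0.549 (permutation test, p = 0.112; Spearman -0.152, p = 0.682; adjusted 0.281 and 0.682), and without L1 it was 0.122.

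*DBI* encodes acyl-CoA binding protein, which holds the coenzyme A esters of long-chain fatty acids in the cytosol, and its symbol is not to be read here as the double bond index of a fatty acid profile. Its values were 13.72, 14.00, 13.28, 13.30 and 14.03 in H1 to H5, and 13.98, 13.90, 13.96, 13.84 and 13.99 in L1 to L5. The L animals were nearly alike, whereas H3 and H4 lay far below them, H1 less so, and H2 and H5 just above them. The 5 H animals averaged 13.67 ± 0.37 and the 5 L animals 13.93 ± 0.06 (SD), a difference of -0.27 with a standard error of 0.16 and a 95% confidence interval from -0.61 to 0.08 (limma, unadjusted p = 0.119, adjusted p = 0.985; exact permutation test, p = 0.198). The SD of the H group was 5.78 times that of the L group, a ratio reached by 46 of 4712 genes with a spread in both groups, or 0.976%. Leaving out 1 animal moved the difference between -0.36 without H5 and -0.17 without H3, and the unadjusted p was 0.0402 without H5 and 0.0481 without H2 (limma). The low *DBI* values of H3 and H4 were thus the larger part of the difference, and 2 of the 5 H animals exceeded every L animal.

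*FADS1*, the Δ5 desaturase gene, varied most among the animals. Its values were 4.34, 6.03, 4.76, 5.73 and 7.23 in H1 to H5, and 6.40, 5.91, 4.63, 7.27 and 6.15 in L1 to L5. Each group held a high animal, H5 and L4, and at least 1 low animal, H1 and H3 in H and L3 in L, so that the groups overlapped over nearly the whole range. The distance from the lowest to the highest animal was 2.93, a 7.62-fold range of signal. Whether the lowest animals, H1, L3 and H3, had signal above the background of the probe set was not tested. The 5 H animals averaged 5.62 ± 1.14 and the 5 L animals 6.07 ± 0.96 (SD), and the difference of -0.45 had a standard error of 0.59 and a 95% confidence interval from -1.76 to 0.85 (limma, unadjusted p = 0.460, adjusted p = 0.985; exact permutation test, p = 0.460). Only 2.68% of all measured genes had a larger difference in either direction, yet the interval of *FADS1* spans 0 widely. The difference was -0.85 without H5 and -0.13 without H1.

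The SD of *FADS1* over the 10 animals was 1.02, larger than that of 98.9% of the measured genes, whose median SD was 0.22. Dim probe sets can vary more than bright ones, and for this reason *FADS1* was also set against the 1209 genes within 1 log2 unit of its mean, which had a median SD of 0.25, and 98.3% of them varied less. The SD over the 10 animals was 0.40 for *FABP1*, 0.37 for *ACSL4* and 0.28 for *DBI*, and the share of measured genes that varied less was 85.1% for *FABP1*, 81.4% for *ACSL4* and 67.4% for *DBI*. Among the genes within 1 log2 unit of the mean that share was 92.2% of 115 for *FABP1*, 82.8% of 1171 for *ACSL4* and 86.4% of 162 for *DBI*. The correlation of *FADS1* with the *GAPDH* difference was 0.147 (permutation test, p = 0.700; Spearman 0.188, p = 0.609), and that of *DBI* was 0.331 (permutation test, p = 0.369; Spearman 0.309, p = 0.390), neither of which passed the adjustment over the 5 genes.

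*FADS2*, the Δ6 desaturase gene, was near the lower bound of the array. One of its 2 probe sets had the lowest value of the table on all 10 arrays. The other averaged 3.46, with 3.32, 3.18, 3.34, 3.16 and 4.73 in H1 to H5, and 3.39, 3.77, 2.60, 3.72 and 3.36 in L1 to L5. H5 stood above all the other animals and was the only 1 over 4, and L3 was the lowest. The mean of the brighter probe set was 3.55 ± 0.67 in the H animals and 3.37 ± 0.47 in the L animals (SD, n = 5 each), and with the minimum lowered to 3 the difference was 0.18, standard error 0.33 (adjusted p = 0.987 by limma; exact permutation test, p = 0.690). No difference of *FADS2* between H and L was detected on these arrays. Whether its closeness to the lower bound hid one was not tested.

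**Figure D2:**
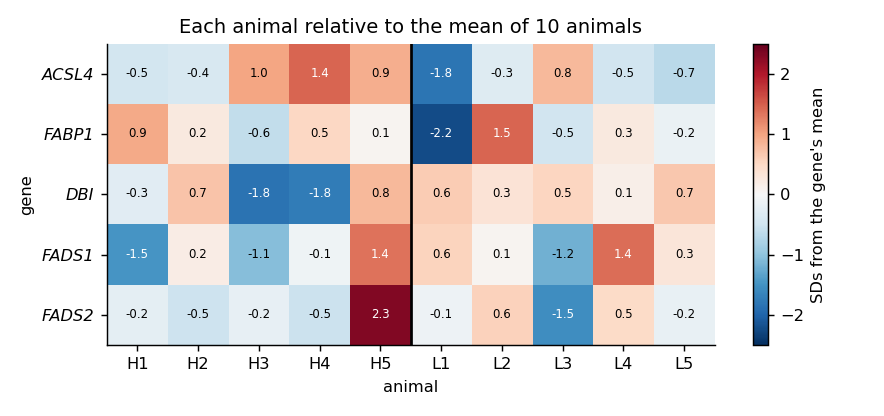
Distance of each animal from the mean of the 10 animals, in SDs of the gene, for the 4 measured genes and the brighter probe set of *FADS2* (rows), with the 5 H animals left of the black line and the 5 L animals right of it; red is above and blue below the mean. H5 is high for both desaturase genes and L3 low for both, H3 and H4 are low for *DBI*, and L1 is low for *ACSL4* and *FABP1*.

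The genes did not vary as a block over the animals. Among the 6 pairs of measured genes, 2 had a Pearson correlation above 0 and 4 below 0, and 0 had an adjusted or an unadjusted p under 0.05 (permutation test). The median correlation was -0.11 and the median without regard to sign was 0.28, against 0.03 and 0.27 over all pairs of measured genes. The pair farthest from 0 was *ACSL4* and *DBI*, with r = -0.571 (permutation test, p = 0.102, adjusted over the 6 pairs 0.604) and a Spearman correlation of -0.358 (p = 0.312, adjusted 0.624). That correlation was -0.341 without H4 and L1 and -0.423 with each group centred on its mean, and 12.7% of all pairs of genes were at least as far from 0. *DBI* and *FADS1* had r = 0.436 (permutation test, p = 0.201, adjusted 0.604) and a Spearman correlation of 0.539 (p = 0.112, adjusted 0.624), and *ACSL4* and *FADS1* had r = -0.245 (permutation test, p = 0.496, adjusted 0.744) and -0.406 by Spearman (p = 0.249, adjusted 0.624). *FABP1* correlated with *DBI* at -0.114 and with *FADS1* at -0.102. Its correlation with *ACSL4* was 0.315 (permutation test, p = 0.381, adjusted 0.744; Spearman 0.152, p = 0.682), but -0.581 without H4 and L1. Its sign rested on L1, since it was -0.386 without L1 alone and 0.265 without H4 alone.

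With the brighter *FADS2* probe set included there were 10 pairs, of which 0 passed the adjustment. The pair of desaturase genes, *FADS1* and *FADS2*, was the only 1 with an unadjusted p under 0.05, with r = 0.682 (permutation test, p = 0.0227, adjusted over the 10 pairs 0.227) and a Spearman correlation of 0.697 (p = 0.0306, adjusted 0.306). H5 was high and L3 low for both genes. The correlation was 0.633 without H1 and L3, which lay farthest from the *FADS1* median, and 0.752 with each group centred on its mean, and it lay between 0.571 without H5 and 0.749 without H1 when animals were left out in turn. Of the 10 values of *FADS2*, 9 lie under the minimum of 4. In the RefSeq annotation of Sscrofa11.1, a later assembly than the one the study mapped its sequencing reads to, both genes are on chromosome 2 with 2 genes annotated between them that have no symbol of their own.

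**Figure D3:**
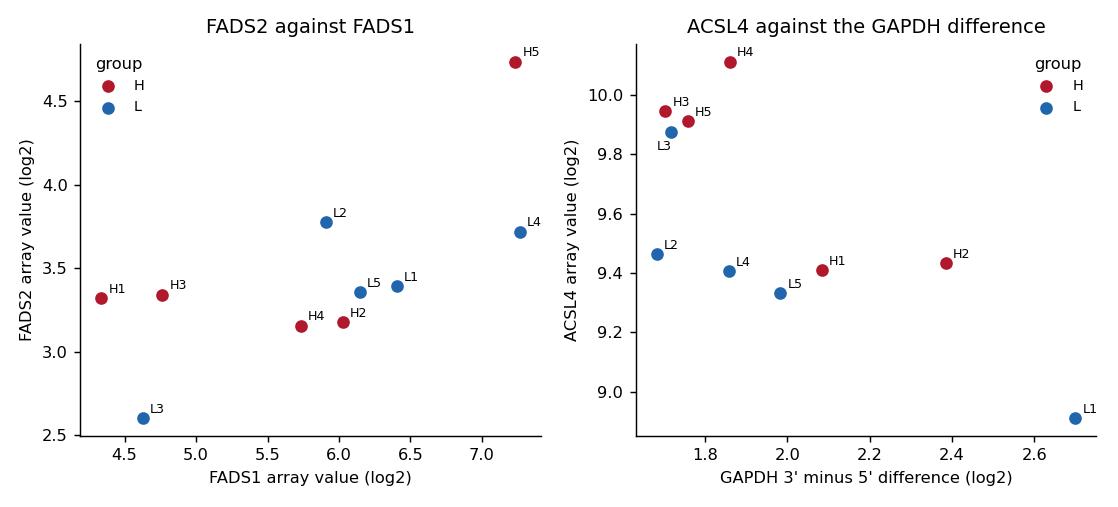
Left, the array value of the brighter *FADS2* probe set against that of *FADS1* (both log2), and right, the array value of *ACSL4* against the *GAPDH* 3' minus 5' difference (both log2), with 1 point for each of the 5 H animals (red) and 5 L animals (blue). On the left the animals run from L3, low for both genes, to H5, high for both (r = 0.682), and on the right L1 has the largest *GAPDH* difference and the lowest *ACSL4*, while among the animals with a small difference H3, H4, H5 and L3 are high for *ACSL4* and L2 and L4 are not (r = -0.741).

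For each measured gene the 2 other genes with the highest correlation over the 10 animals were looked up among all measured genes. For *FADS1* they were *APOB*, the structural protein of very low density lipoprotein, with r = 0.849, and *CCDC25* with r = 0.840, and these were 0.788 and 0.644 without H1 and L3. The *APOB* signal of 15.27 in H5 and 15.23 in L4 was its highest and that of 15.06 in L3 its lowest, so its range was far narrower than that of *FADS1* and lay near the upper bound of the array. For *ACSL4* they were *DNAJB6*, a co-chaperone, with r = 0.947, and *SAP30*, a subunit of a histone deacetylase complex, with r = 0.921. *DNAJB6* and *SAP30* also went with the *GAPDH* difference, at r = -0.796 and r = -0.620. For *FABP1* they were *MLF2* with 0.892 and *AKAP1*, an anchor of protein kinase A at the mitochondrion, with 0.862, which were 0.619 and 0.557 without L1 and L2. *MLF2* and *AKAP1* went with the *GAPDH* difference as well, at r = -0.628 and r = -0.731. For *DBI* they were *PSMB6*, a proteasome subunit, with 0.930, and *SETDB1*, a histone methyltransferase, with 0.927, which were 0.211 and 0.308 without H3 and H4, the 2 animals on which those correlations rested. With the *GAPDH* difference *PSMB6* correlated at 0.187, *SETDB1* at 0.167, *APOB* at -0.152 and *CCDC25* at 0.099. A correlation of at least 0.8 in either direction was shared with 52 genes by *ACSL4*, 36 by *DBI*, 29 by *FABP1* and 9 by *FADS1*, and the median over all measured genes was 46.

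The other genes of these routes were read from 4 lists of 104 genes in all, of which 62 had a probe set and 43 were measured. None of the 43 had an adjusted p under 0.05, 0 were higher and 1 was lower in H at an unadjusted p under 0.05 (limma). This count is near the background of 2.64% over all measured genes, and is not a result about the lists. The gene was *MFSD2A*, the transporter of docosahexaenoic acid in the form of lysophosphatidylcholine. Its values were 10.17, 10.68, 10.43, 10.35 and 9.70 in H1 to H5, and 10.75, 10.73, 10.89, 10.99 and 10.45 in L1 to L5. Among the H animals only H2 lay within the range of L, and the others lay below all L animals. The 5 H animals averaged 10.26 ± 0.36 and the 5 L animals 10.76 ± 0.20 (SD), a difference of -0.50 (standard error 0.17; limma, unadjusted p = 0.0168, adjusted p = 0.985).

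Of 38 other genes of fatty acid uptake, binding and activation, 16 were measured, 6 with a difference above 0 and 10 below, and their median was -0.08. After *MFSD2A* the smallest p was that of *FABP5*, another cytosolic fatty acid binding protein, with 6.36 ± 0.45 in the H animals and 6.82 ± 0.59 in the L animals (SD, n = 5 each) and a difference of -0.46 (limma, unadjusted p = 0.154). The synthetase gene *ACSL1*, which makes acyl-CoA for oxidation and for triacylglycerol, varied little, with 14.82 ± 0.09 in the H animals and 14.91 ± 0.06 in the L animals (SD, n = 5 each). *ACSL3* encodes a synthetase of the endoplasmic reticulum and lipid droplets. Its L animals lay between 9.64 and 9.73, while the H animals ran from 9.37 in H3 to 10.93 in H4. The H animals thus spread more widely, as they did for *DBI*. For *ACSL3* H4 lay farthest from the L animals, but the other H animals, from 9.37 to 9.90, also spread more widely than L. H4 was low for *DBI*, and the difference of *ACSL3* was 0.26, against -0.27 for *DBI*. *SLC27A6*, a relative of the unmeasured *SLC27A2*, ran from 5.88 to 8.63 in H and from 6.39 to 8.94 in L. *SLC27A1*, *ACSL6*, *FABP2*, *FABP7* and *LPL*, all of which are better known from muscle, brain, gut or fat, were at 2.19 on every array, the lowest value to the second decimal.

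Of 23 other desaturases, elongases and their partners, 11 were measured, 5 with a difference above 0 and 6 below, and their median was -0.02. The smallest p-values were those of *HACD3*, a dehydratase of the elongation cycle, with a difference of 0.22, and *ACAA1*, the peroxisomal thiolase, with -0.19 (limma, unadjusted p = 0.130 and 0.139). *SCD*, the Δ9 desaturase that makes oleic and palmitoleic acid, was 10.15, 9.26, 8.21, 7.97 and 9.15 in H1 to H5, and 8.14, 10.40, 8.44, 8.87 and 8.65 in L1 to L5. The *SCD* groups overlapped throughout, with a difference of 0.05 and a 95% confidence interval from -1.05 to 1.14 (limma). *ELOVL6*, which elongates palmitic acid, had 8.42 ± 0.73 in the H animals and 8.90 ± 0.41 in the L animals (SD, n = 5 each), a difference of -0.49 (limma, unadjusted p = 0.177). *ELOVL3* was at the lowest value on every array.

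**Figure D4:**
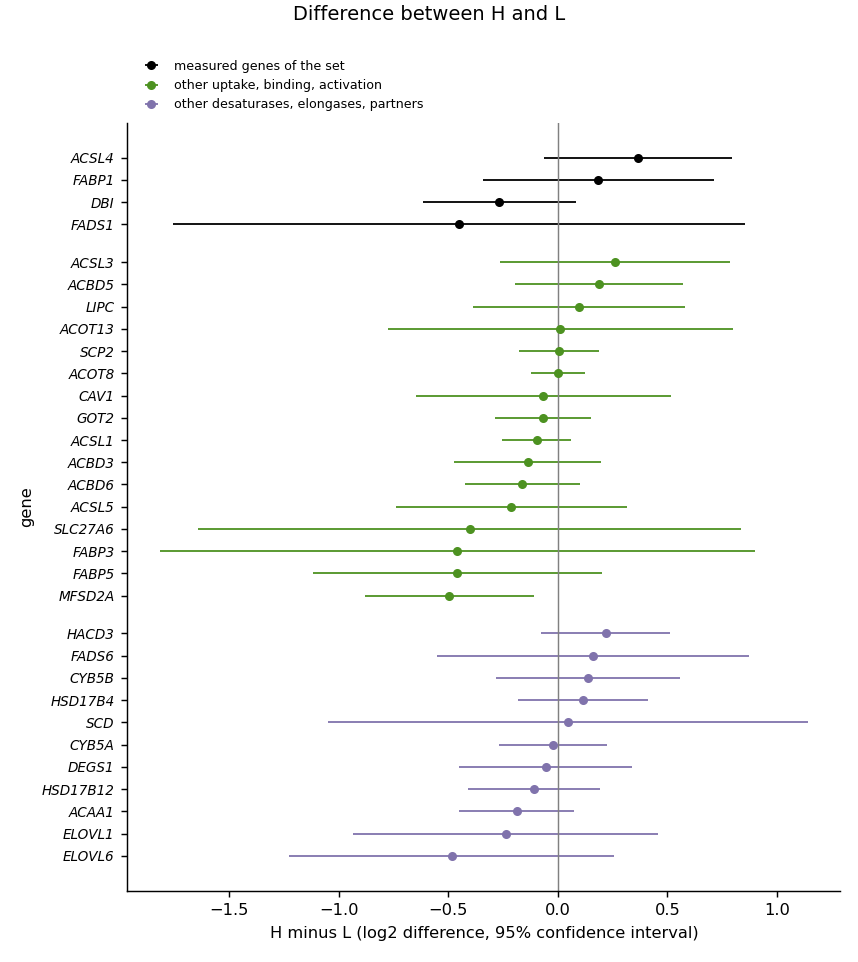
Difference between H and L (H minus L, log2) with its 95% confidence interval from limma for the 4 measured genes of the set (black, top), the 16 other measured genes of uptake, binding and activation (green) and the 11 other measured desaturases, elongases and partners (purple). Only the interval of *MFSD2A*, with a difference of -0.50, leaves out 0, and its adjusted p is 0.985.

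Of 17 genes that remodel phospholipids or release polyunsaturated fatty acids from them, 5 were measured, 3 above and 2 below 0, with differences between -0.06 for *LCAT* and 0.08 for *LPCAT4* and a median of 0.01. Of 26 transcription factors and cofactors that act on fatty acid genes, 11 were measured, 7 above and 4 below 0, with a median of 0.03. The smallest p-values among them were those of *NR1H3*, the oxysterol receptor LXRα, with a difference of -0.24 (8.78 to 9.20 in H and 9.03 to 9.47 in L; limma, unadjusted p = 0.0668), and of *FOXO1* with 0.25 (limma, unadjusted p = 0.150). *SREBF1* and *PPARA*, which encode the best known regulators of the desaturase genes, averaged 2.22 and 2.45, close to the lowest value, and *PPARG* and *RXRA* were at the lowest value on every array, so that nothing can be said about these 4 genes from the arrays.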

How the data were processed

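The arrays were scanned through GCOS and summarised with GCRMA by the authors, and the deposited table holds log2 values of 24123 probe sets on 10 arrays. The submitters' processing notes also name RMA; no source used here gives a version. The values were used as deposited. After 124 controls were left out, 23999 probe sets remained, of which 10069 had 1 symbol, 198 several and 13732 none in the platform annotation used here. Of those with 1 symbol, 9961 were named through their Entrez ID and 108 kept the platform's name. A gene's value averages those of its probe sets that reach a mean of 4, which gave 4730 genes and 11756 probe sets. The groups were compared by limma 3.58.1 (lmFit, eBayes, no covariate; R 4.3.3), after the script was tested on simulated data. Correlations used 100000 permutations in Python 3.11.15 (numpy 2.4.6, pandas 2.3.3, scipy 1.17.1), and exact enumeration below 10 values; figures used matplotlib 3.10.9.

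The members and lists were chosen with earlier results of these data known. Named are the 9 genes, the 2 genes of each list with the smallest p, and the 2 genes most alike to each measured gene. Some, but not all, markers and list genes at or near the lowest value are named as well. *ACSL1*, *ACSL3*, *SLC27A6*, *SCD*, *ELOVL6*, *SREBF1*, *PPARA*, *LEP* and *ACOT8* were chosen after their values were seen. Alternatives were other minimum means, quantile normalization, centring, array weights, trend and robust eBayes, other ways to combine probe sets, the *GAPDH* difference as covariate, a replicate block and leaving out each animal. The correlations with *FADS2* and with the *GAPDH* difference were added after the data were seen. Arrays give no depth, and the number of arrays limits the precision.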

Additional observations from a re-analysis of the deposited data

Results flagged for a closer look

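In 26 groups of 5 animals, the value farthest from the others was compared with the spread of its group, and an animal was picked out if the distance to its neighbour exceeded 0.71 of the whole range, which is Dixon's limit. Chance picks out about 1 in 20 groups, and 2 were found. The first was the brighter *FADS2* probe set in H5, at 4.73, while the other H animals lay between 3.16 and 3.34 (0.883 of the range). H5 was also the highest H animal for *FADS1*, at 7.23. The second was *LPCAT4*, which encodes a lysophospholipid acyltransferase, in H2, at 5.82, while the other H animals lay between 5.43 and 5.46 (0.908 of the range). For *LPCAT4*, H1, H5 and L5 had the same value to the third decimal.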

How the results depend on the processing

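Under all 21 alternatives, 10 of which leave out 1 animal, 0 genes had an adjusted p under 0.05 (limma), and the lowest adjusted p of any gene was 0.794. The number of genes with an unadjusted p under 0.05, 125, lay between 90 without L4 and 281 without L2 and was 213 without H2, and that of probe sets, 363, lay between 237 without L4 and 685 without L2 and was 617 without H2. The number of the 4 measured genes with an unadjusted p under 0.05, 0, became 1 with array weights, with the *GAPDH* difference as covariate and with the replicate block, in each case through *ACSL4*, and lay between 0 and 1 with animals left out, through *ACSL4* without H1 or L3 and *DBI* without H2 or H5. With the replicate block *ACSL4* differed by 0.36 (SE 0.14, limma, unadjusted p = 0.0356, adjusted p = 0.994), and 140 genes had an unadjusted p under 0.05. The labels do not say whether a shared animal number marks a pair. Deviations of same-numbered animals from their group means correlated between -0.24 and 0.28 over the measured genes. Of the H animals, only H4 correlated best with the L animal of its own number. These correlations cannot decide whether the numbers mark pairs. The correlation of *ACSL4* with *FABP1* lay between -0.39 without L1 and 0.44 without L2 (permutation test), being -0.386 without L1, and was -0.16 with the *GAPDH* difference regressed out. The differences of *ACSL4*, *DBI* and *FADS1* kept their direction under every alternative run, and that of *FABP1* did except without L1. The number of arrays limits what can be detected, and for *FADS2* the lower bound of the signal may do so too.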
